A study of Mus musculus with 19 samples.

Results

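RNA of leukemic and wild-type blood stem and progenitor cells was compared over all 33862 RefSeq accessions of the count table, in 7 of the 19 libraries of the study. The leukemic group, 3 libraries, came from Idh2 R140Q;Flt3-ITD mice with acute myeloid leukemia that received vehicle. The wild-type group (WT), 4 libraries, came from mice without either allele and without treatment. All 7 were C57BL/6 cells sorted as lin-Sca+cKit+ (LSK), the fraction of blood-forming tissue that holds stem and multipotent progenitor cells, and were not cultured. No library here carried 1 allele without the other, and no WT mouse received vehicle, so the effects of the mutant Idh2, the mutant Flt3, the leukemia and the vehicle cannot be told apart. The age of the mice and the elements that drive the alleles are not given in the sources used here. The column headers name the leukemic libraries V3, V3-2 and V9. V3 and V3-2 share a number and may come from 1 animal, so V9 is also given alone for many results. Where it is not, a call over the 3 libraries may rest on V3 and V3-2. The p-values measure the spread between libraries, which may in part be technical.

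IDH2 is a mitochondrial enzyme that makes alpha-ketoglutarate. Its R140Q form makes 2-hydroxyglutarate instead, which inhibits enzymes that use alpha-ketoglutarate, TET2 and several histone demethylases among them. FLT3 is a receptor tyrosine kinase of early progenitors, and its internal tandem duplication (ITD) signals without ligand, through STAT5 and the MAP kinases. In normal blood formation LSK cells give rise to lymphoid cells, red cells, platelets, granulocytes, monocytes and dendritic cells, and each path switches on its own genes while the stem cell genes go off.

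Totals were 14305604, 20140641 and 13128950 counts in V3, V3-2 and V9 and 10176915 to 12253599 counts in wt1 to wt4, and 14112 to 15317 accessions had at least 1 count. Of all accessions 11830 passed the expression filter and were tested. The leukemic libraries were not alike. On the first principal component, which held 85.7% of the variance over the 500 most variable accessions, V3 and V3-2 lay at -62.6 and -66.6, V9 at -24.4 and the WT libraries from 30.6 to 44.7. The second component, with 7.69% of the variance, set V9 apart at -33.0. Over 8312 well-counted accessions the SD of the log2 differences was 0.296 to 0.551 between WT libraries and 0.796 to 1.06 between V9 and WT. It was 0.854 between V3 and V9, 1.21 between V3-2 and V9 and 1.05 between V3 and V3-2, so V3-2 was no closer to V3 than V9 was.

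**Figure D1:**
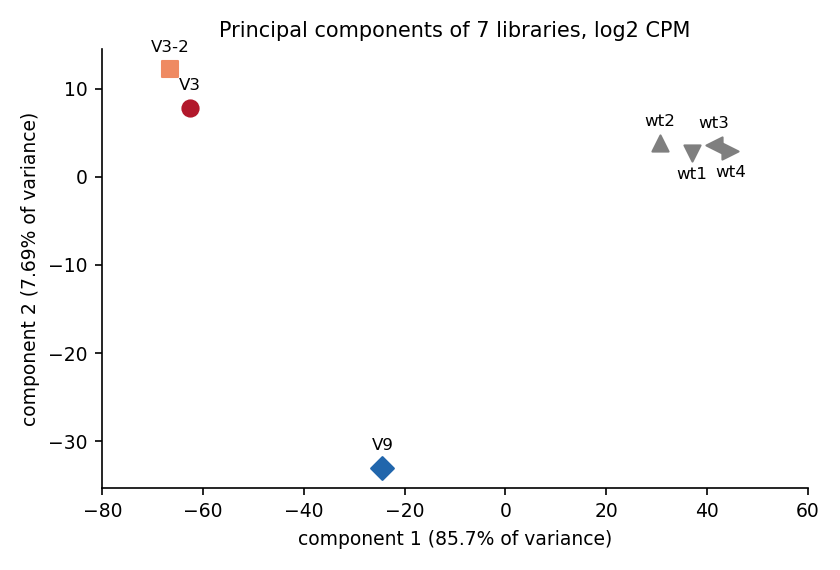
Principal components of the 7 libraries over the 500 most variable accessions on log2 CPM, with the first component on the x axis (85.7% of variance) and the second on the y axis (7.69%). V3 and V3-2 lie together at -62.6 and -66.6, V9 lies apart at -24.4 and -33.0, and the 4 WT libraries lie together on the right.

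The promoters of 5 genes named below are shown first, each with bases 250 before to 30 after the start of transcription, from RefSeq on build GRCm38.p6. They come from 3 groups of genes: Cish is a target of STAT5, Ifit1, Rsad2 and Isg15 are interferon-induced, and Ltf is a gene of late neutrophil granules. All 5 windows hold the motif searched for, so they do not represent their groups. Among tested list members with a promoter, 27.3% of STAT5, 50.0% of interferon and 42.9% of late granule genes held it. Capitals mark the motif searched for, on both strands. For Cish it is TTCNNNGAA, the palindrome that STAT proteins bind, found 2 times. For the interferon genes it is GAAANNGAAA, the core of the interferon-stimulated response element, and in Isg15 its 3 matches overlap. For Ltf it is TTGCNNAA, a C/EBP-type motif. Over 27025 mouse promoters of the same length, 7.99% held TTCNNNGAA, 3.35% held GAAANNGAAA and 10.3% held TTGCNNAA. The windows are chr9:107296409-107296688 (plus strand) for Cish, chr19:34640639-34640918 (plus) for Ifit1, chr12:26456423-26456702 (minus) for Rsad2, chr4:156200789-156201068 (minus) for Isg15 and chr9:111019042-111019321 (plus) for Ltf.
Cish: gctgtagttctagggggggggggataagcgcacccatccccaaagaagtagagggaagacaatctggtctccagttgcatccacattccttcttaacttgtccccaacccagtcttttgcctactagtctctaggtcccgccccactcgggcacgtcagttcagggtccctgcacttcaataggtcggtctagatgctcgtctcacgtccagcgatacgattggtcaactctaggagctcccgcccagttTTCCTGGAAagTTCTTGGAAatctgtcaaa
Ifit1: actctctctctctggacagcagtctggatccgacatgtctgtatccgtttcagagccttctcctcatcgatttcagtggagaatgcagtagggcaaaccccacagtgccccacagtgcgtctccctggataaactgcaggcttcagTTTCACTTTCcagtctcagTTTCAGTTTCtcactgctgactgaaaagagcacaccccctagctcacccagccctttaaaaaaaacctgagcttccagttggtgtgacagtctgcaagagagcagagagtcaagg
Rsad2: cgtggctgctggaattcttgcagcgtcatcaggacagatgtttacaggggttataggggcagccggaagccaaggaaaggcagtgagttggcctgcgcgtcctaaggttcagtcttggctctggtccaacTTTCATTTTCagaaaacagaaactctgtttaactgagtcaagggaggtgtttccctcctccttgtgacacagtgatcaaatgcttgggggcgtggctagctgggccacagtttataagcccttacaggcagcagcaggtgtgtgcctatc
Isg15: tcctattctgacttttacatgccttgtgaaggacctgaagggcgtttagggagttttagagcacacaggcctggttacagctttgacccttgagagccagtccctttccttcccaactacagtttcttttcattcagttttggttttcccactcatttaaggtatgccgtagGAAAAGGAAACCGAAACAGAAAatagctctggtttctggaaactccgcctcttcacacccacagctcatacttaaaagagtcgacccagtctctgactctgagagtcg
Ltf: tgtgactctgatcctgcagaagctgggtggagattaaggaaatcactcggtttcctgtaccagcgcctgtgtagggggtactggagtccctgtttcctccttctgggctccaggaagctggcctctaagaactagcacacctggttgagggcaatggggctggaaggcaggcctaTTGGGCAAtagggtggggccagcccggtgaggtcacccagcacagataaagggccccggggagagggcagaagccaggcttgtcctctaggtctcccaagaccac

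The engineered genes and the sort markers were looked at first. Levels are CPM, the count of a gene scaled to a common library total after TMM correction. They are given in the order V3, V3-2 and V9 and then wt1, wt2, wt3 and wt4, and a gene with several accessions is given by the one with the highest level. Fold changes are on the log2 scale with their standard error. Idh2 was at 153, 545 and 237 CPM in V3, V3-2 and V9 and 187, 203, 191 and 132 CPM in wt1 to wt4 (log2 fold change 0.81 ± 0.39, adjusted p = 0.143). V3-2 was the one library above the WT range by a wide margin, and a count does not show which allele was read. Flt3 was at 58.3, 146 and 260.4 against 328, 304, 534 and 465 CPM. All 3 leukemic libraries lay below all 4 of WT, V9 the nearest, and Flt3 fell in the edgeR test over all 3 (-1.396 ± 0.46, adjusted p = 0.0356), while V9 alone did not pass (-0.65 ± 0.62, adjusted p = 0.756). The sort markers c-Kit and Sca-1 could not be checked: Kit, with 2 accessions, had at most 2 counts in any library, and Ly6a, with 6, had 0 in all 7. In genes with several accessions 61.6% of the accessions were at 0 in every library, against 18.9% in other genes. Cd34 and Cd48, which are not part of that sort and so do not check it, were present in every library. Cd34 was at 15.02, 15.9 and 15.6 against 10.7, 11.8, 6.36 and 8.79 CPM and Cd48 at 729, 278 and 1297 against 412, 427, 293 and 323 CPM. Like Kit, Cd34 has 2 accessions, so its level carries the same doubt. Slamf1, looked at with them, was nearly absent from the leukemic libraries, with 0, 3 and 7 counts against 156, 126, 84 and 91. With single libraries left out, calls ended for Flt3 without V3, V3-2, wt3 and wt4 (adjusted p = 0.15, 0.102, 0.0909 and 0.0898). Fold changes moved by over 1.5 times for Idh2 without V3-2 (log2 0.13), Flt3 without V9 (log2 -2.01).

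Of the lineage markers that the sort should deplete, those that could be read were low. Their summed level was 118, 75.9 and 21.8 CPM in V3, V3-2 and V9 and 99.3 to 121 CPM in WT. The composition of that sum differed: in the leukemic libraries it was nearly all Adgre1, which encodes the macrophage marker F4/80 (116, 75.2 and 20.2 against 2.2996, 2.27, 2.56 and 1.85 CPM), and in WT it was mostly B and T cell and red cell genes. Itgam, Cd8a and Klrb1c had 0 counts in all 7 libraries and also have several accessions, so they could not be checked. Ly6g, also on the list, was not matched to any gene measured here. The sum therefore holds no Itgam or Ly6g counts and does not check for granulocytes.

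Of the 11830 accessions tested, 1195 (10.1%) rose and 1233 (10.4%) fell in the 3 leukemic libraries (edgeR quasi-likelihood test, adjusted p under 0.05), and for 4389 (37.1%) the leukemic and WT libraries did not overlap. Upper quartile scaling, which shifted the median log2 fold change of all accessions by -0.18, gave 801 higher and 1474 lower. Deposited FPKM on the log2(FPKM + 1) scale, shifted by -0.23, gave 560 higher and 2153 lower by limma. No named gene that was called in either fit changed sign under these scalings. Among genes called in neither, 4 changed sign on log2(FPKM + 1) and 1 with upper quartile factors. With V9 alone against WT, 89 (0.752%) rose and 55 (0.465%) fell, and V9 has no replicate, so it was assumed to vary like the other groups. The 2428 calls over the 3 libraries became 1266 without V3, 1488 without V3-2, 1567 without wt3 and 1477 without wt4. Those of V9, 144 in all, became 52 without wt1, 48 without wt3 and 36 without wt4. Without wt2 there were 97, of which 33 were lower. For V3 and V3-2 together, 1339 (11.3%) rose and 1425 (12%) fell. Over all accessions tested, V9 was above all 4 WT libraries in 34.1% and below all 4 in 34.3%. In the accessions called over the 3 libraries, which V9 helped to choose, the median log2 fold change was 0.87 in V9 and 1.71 in V3 and V3-2 for those that rose, and -1.93 and -3.04 for those that fell. A test of the difference itself called 158 accessions (1.34%) higher in V9 than in V3 and V3-2 and 11 (0.0930%) lower. In 146 of the 158, V3 and V3-2 had fallen below WT, and V9 was within the WT range in 28 and called above WT in 9. For all 11 accessions that were lower in V9, V3 and V3-2 had risen above WT. The median log2 fold change over all 11830 was 0.02 for the 3 libraries and -0.04 for V9.

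**Figure D2:**
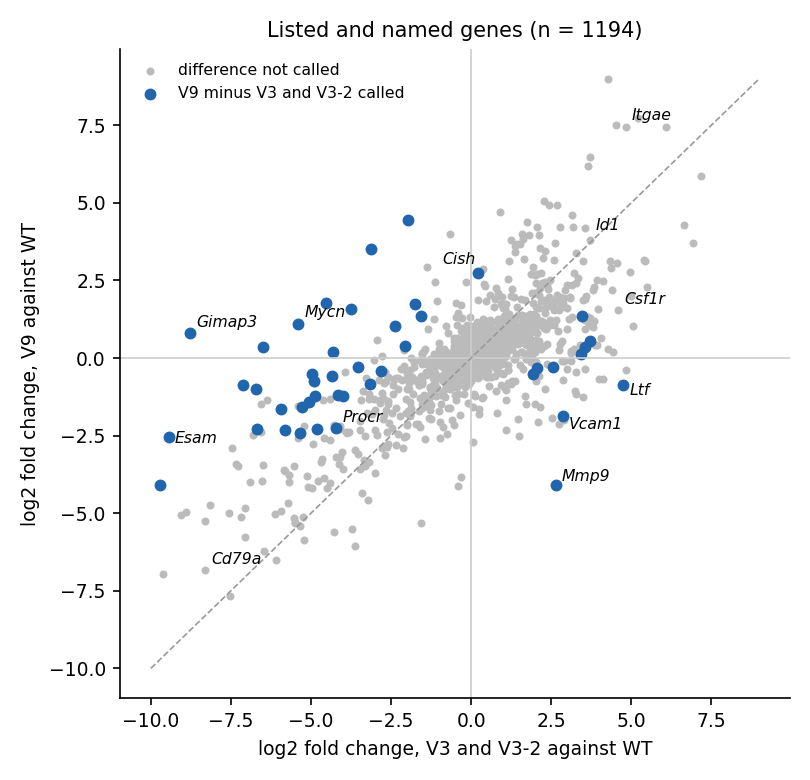
Log2 fold change against WT in V9 (y axis) and in V3 with V3-2 (x axis) for 1194 listed or named genes, with the dashed line marking equal change and blue points the 44 genes whose difference passed the test. Most blue points lie left of 0 and above the line, such as Mycn and Esam, and a few lie right of 0 and below it, such as Ltf and Mmp9.

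A set of genes rose over the 3 leukemic libraries and also passed in V9 alone. Id1, a helix-loop-helix inhibitor that answers to BMP and STAT5 signals, was at 63.8, 46.5 and 59.6 CPM in V3, V3-2 and V9 and 4.98, 5.97, 2.64 and 3.31 CPM in wt1 to wt4. The 2 groups were far apart and the leukemic libraries close to each other (log2 fold change 3.74 ± 0.42, adjusted p = 1.96e-05), and V9 alone passed (3.81 ± 0.51, adjusted p = 0.000966). Ccn3, a secreted matricellular protein of stem cells, read 7.68, 15.01 and 29.1 against 0.307, 0, 0.165 and 0.161 CPM. V9 was the highest, 1 WT library was at 0, and the gene rose over all 3 (6.69 ± 0.80, adjusted p = 3.83e-05), in V9 (7.44 ± 0.86, adjusted p = 0.00019) and in V3 with V3-2 (6.09 ± 0.79, adjusted p = 2.55e-05). Pmaip1, which encodes the pro-apoptotic protein NOXA, was at 30.4, 19.7 and 38.4 against 1.69, 3.32, 2.56 and 0.806 CPM (3.81 ± 0.54, adjusted p = 0.000149 and in V9 4.19 ± 0.64, adjusted p = 0.00269). Bhlhe40, a transcription factor, was at 37.05, 22.4 and 48.3 against 8.74, 7.48, 6.69 and 7.097 CPM (2.26 ± 0.30, adjusted p = 9.29e-05 and in V9 2.68 ± 0.37, adjusted p = 0.0011). For both, every leukemic library exceeded every WT library. 

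Anxa2, a calcium-dependent membrane-binding protein, was at 869, 471 and 673 against 137, 181, 120.1 and 84.998 CPM, higher in all 3 leukemic libraries (2.36 ± 0.34, adjusted p = 0.000189 and in V9 2.37 ± 0.45, adjusted p = 0.0118). Met, the receptor for hepatocyte growth factor, was at 79.4, 147 and 40.7 against 8.43, 5.97, 2.73 and 2.26 CPM, with V9 the lowest of the leukemic libraries and still above all of WT (4.20 ± 0.53, adjusted p = 5.92e-05 and in V9 3.06 ± 0.59, adjusted p = 0.0134). Elovl7, a fatty acid elongase, was among the most even of these genes, at 36.2, 40.03 and 41.4 against 12.03, 8.76, 7.52 and 10.2 CPM (2.03 ± 0.29, adjusted p = 0.000169 and in V9 2.10 ± 0.39, adjusted p = 0.0097). Ptgir, the prostacyclin receptor (2.16), S1pr3, a sphingosine 1-phosphate receptor (2.82), and the GTPase-linked genes Arl11 (2.13) and Rassf4 (2.56) also rose on the log2 scale in all 3 and passed in V9 alone.

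Losses shared by the 3 libraries were deeper. Adgrl4, an adhesion receptor of stem and endothelial cells, was at 179, 114 and 109.6 CPM in V3, V3-2 and V9 and 875, 827, 1111 and 978 CPM in wt1 to wt4. No leukemic library came near the WT range, and V9 was level with V3-2 (log2 fold change -2.82 ± 0.28, adjusted p = 5.29e-06 and in V9 -3.11 ± 0.47, adjusted p = 0.00269). Bgn, which encodes the proteoglycan biglycan, read 1.27, 0.337 and 1.52 against 59.5, 41.5, 47.5 and 39.4 CPM (-5.53 ± 0.55, adjusted p = 5.29e-06 and in V9 -4.94 ± 0.86, adjusted p = 0.00734). Sema3d, a secreted guidance protein, was nearly absent from the leukemic libraries, at 0, 0.0481 and 0.241 against 23.2, 16.1, 42.97 and 41.5 CPM (-8.26 ± 0.78, adjusted p = 4.81e-06 and in V9 -6.95 ± 1.10, adjusted p = 0.00378). Tgfbr3, a co-receptor for TGF-beta, was at 3.12, 2.55 and 4.65 against 49.4, 40.4, 45.1 and 63.95 CPM and fell in all 3 (-3.86 ± 0.51, adjusted p = 8.00e-05) and in V9 (-3.41 ± 0.80, adjusted p = 0.0414). S1pr1, the receptor by which cells leave tissue towards sphingosine 1-phosphate, fell (1.18, 1.15 and 2.09 against 32.96, 27.4, 29.8 and 39.1 CPM, -4.45 ± 0.59, adjusted p = 8.49e-05 and in V9 -3.95 ± 0.93, adjusted p = 0.0415), whereas S1pr3 rose, at 132, 96.2 and 73.2 against 18.3, 21.4, 9.67 and 7.66 CPM. A single library moved the fold change by over 1.5 times for Sema3d without V9 (log2 -9.62).

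Some genes were at 0 counts in all 3 leukemic libraries. Wfdc2, a secreted protease inhibitor of the whey acidic protein family, was at 0, 0 and 0 against 9.89, 7.48, 10.2 and 14.4 CPM, and Ripply3, a transcriptional co-repressor, at 0, 0 and 0 against 3.603, 5.06, 6.94 and 10.8 CPM. Set against 3 counts over the leukemic group, which bounds counting error only, the log2 fold change was at most -7.30 and -6.63. Cd207, the langerin gene of Langerhans and some dendritic cells, went the other way, at 2.28, 2.89 and 14.04 against 0, 0, 0 and 0 CPM, a log2 fold change of at least 6.76, or at least 5.45 without V9, the highest of the 3. Aldh1a1, a retinaldehyde dehydrogenase of stem cells, was close to absent at 0.506, 0.144 and 1.77 against 69.1, 53.9, 60.3 and 44.8 CPM (-6.20 ± 0.84, adjusted p = 9.73e-05 and in V9 -5.01 ± 1.16, adjusted p = 0.041). The estimate moved by over 1.5 times for Aldh1a1 without V9 (log2 -7.56).

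Primary granule genes, which neutrophil and monocyte precursors make first, rose broadly: 15 of 19 tested members rose and none fell, with a median log2 fold change of 2.01. In V9 alone 1 passed and the median was 1.004. Mpo, the myeloperoxidase gene, was at 62810.0000, 37336 and 11055 CPM in V3, V3-2 and V9 and 2554, 4911, 1552 and 557 CPM in wt1 to wt4. All leukemic libraries exceeded WT, V9 by the least, and WT itself spanned a wide range (log2 fold change 3.95 ± 0.67, adjusted p = 0.000557 and in V9 2.21 ± 0.74, adjusted p = 0.174). Ctsg, which encodes the granule protease cathepsin G, was at 2534, 4137 and 1266 against 542, 701, 239.8 and 176 CPM (2.67 ± 0.45, adjusted p = 0.000522 and in V9 1.61 ± 0.54, adjusted p = 0.171). Prtn3, the proteinase 3 gene, was at 5969, 5913 and 2354 against 1347, 1734, 727 and 587 CPM (2.11 ± 0.40, adjusted p = 0.00139). Ctsc, the protease that activates these enzymes, was at 337, 162 and 241 against 109, 94.4, 82.5 and 78.8 CPM with V9 between V3-2 and V3 (1.43 ± 0.27, adjusted p = 0.00114 and in V9 1.399 ± 0.37, adjusted p = 0.0714). Leaving out 1 library moved the estimate by over 1.5 times for Mpo without V3 and wt2 (log2 3.32 and 4.57).

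Late granule genes, which neutrophils switch on after the primary ones, divided V9 from the others. Of 16 tested members 9 rose over the 3 libraries (3 without V3, 5 without wt1, 5 without wt3, 4 without wt4 and 2 on log2(FPKM + 1)), 11 rose in V3 with V3-2 and 0 in V9. The median log2 fold change was 2.57 in V3 with V3-2 and -1.12 in V9, and 2 members passed as lower in V9 than in the pair. Ltf, which encodes lactoferrin and whose promoter is printed above, was at 3143, 1842 and 50.1 CPM in V3, V3-2 and V9 and 72.7, 176, 71.1 and 50.8 CPM in wt1 to wt4. V3 and V3-2 were far above WT, and V9 was just below the lowest WT library (log2 difference -5.64 ± 1.401, adjusted p = 0.0483 between V9 and the pair, 4.75 ± 0.74, adjusted p = 0.000125 for the pair against WT). Mmp9, the gelatinase gene, was at 60.2, 76.6 and 0.642 against 7.59, 10.05, 12.97 and 13.4 CPM, and here V9 lay below all of WT (log2 difference -6.71 ± 1.32, adjusted p = 0.0098). Cd177, a neutrophil surface protein, was at 525, 336 and 11.4 against 15.3, 26.1, 8.51 and 9.68 CPM, with V9 inside the WT range, and its difference missed the threshold (log2 difference -5.24 ± 1.34, adjusted p = 0.0546). S100a8, a calcium-binding protein of mature neutrophils, was at 6863, 3232 and 385 against 1211, 1870.3, 741 and 766 CPM, V9 again the lowest of all 7, and did not pass over the 3 (1.61 ± 0.93, adjusted p = 0.227). The list summed to 27688, 12659 and 1115 CPM in V3, V3-2 and V9 and 1775 to 4373 CPM in WT, and in such a bulk measure fewer cells of a type and less RNA per cell cannot be told apart. Fold changes moved by over 1.5 times for S100a8 without V3 (log2 0.64).

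**Figure D3:**
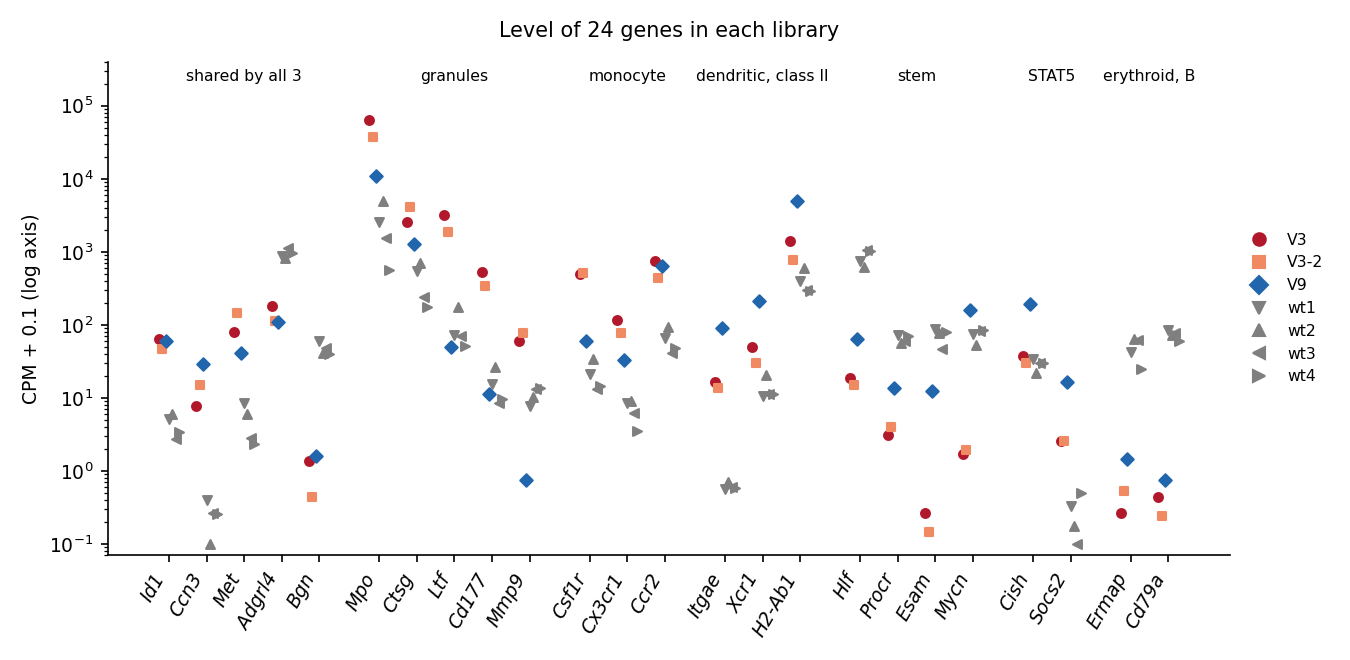
CPM + 0.1 on a log axis for 24 genes in each of the 7 libraries, grouped by role, with colored points for V3, V3-2 and V9 and gray triangles for wt1 to wt4. Id1 and Adgrl4 have all 3 leukemic libraries on 1 side of WT, Ltf, Cd177 and Mmp9 have V9 at or below WT, and Mycn, Esam and Procr have V9 nearer WT than V3 and V3-2.

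Motif matches stand beside those lists as a description. Of the 16 tested late granule genes, 14 had a promoter in the table and 6 of them (42.9%) held TTGCNNAA. Other genes that V9 did not share with V3 and V3-2 were Vcam1, an adhesion molecule of stromal and some myeloid cells, at 193, 121 and 5.86 against 12.7, 33.2, 18.8 and 21.5 CPM (log2 difference -4.74 ± 0.90, adjusted p = 0.0072). Dram1, a lysosomal membrane protein, was at 138, 108 and 12.4 against 7.74, 15.3, 11.98 and 10.2 CPM (log2 difference -3.30 ± 0.79, adjusted p = 0.0356). Bmx, a Tec family kinase, was at 28.5, 25.4 and 2.97 against 1.92, 2.12, 2.07 and 2.02 CPM (log2 difference -3.18 ± 0.77, adjusted p = 0.0406). In each of these V3 and V3-2 were above every WT library, while V9 was below WT for Vcam1, within it for Dram1 and just above it for Bmx.

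Monocyte genes rose in all 3 libraries, with V9 in between. Of 18 tested monocyte and macrophage genes 15 rose and none fell (median log2 fold change 2.78), and 3 passed in V9 (median 1.82). Ccr2, the chemokine receptor of inflammatory monocytes, was at 759, 444 and 647 CPM in V3, V3-2 and V9 and 66.99, 92.3, 40.98 and 48.1 CPM in wt1 to wt4. V9 was as high as the other leukemic libraries (log2 fold change 3.31 ± 0.58, adjusted p = 0.000756 and in V9 3.38 ± 0.72, adjusted p = 0.0242). Cx3cr1, the fractalkine receptor, was at 116, 78.3 and 32.98 against 8.51, 9.07, 6.197 and 3.47 CPM (3.48 ± 0.43, adjusted p = 4.87e-05 and in V9 2.27 ± 0.47, adjusted p = 0.0238). Csf1r, the receptor for M-CSF, was at 491, 512 and 60.98 against 20.8, 34.2, 13.1 and 14.7 CPM: V9 was above WT but several fold below V3 and V3-2, and neither V9 against WT (1.56 ± 0.62, adjusted p = 0.274) nor its difference from the pair (-3.04 ± 0.87, adjusted p = 0.105) passed.

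Genes of phagocytes moved with them. Of 28 tested phagosome and lysosome genes 17 rose and 1 fell, with Hexa, a lysosomal hexosaminidase subunit, at 649, 584 and 255 against 128, 171, 93.5 and 92.4 CPM (2.03 ± 0.31, adjusted p = 0.000231) and Grn, the progranulin gene, at 848, 649 and 376 against 209.9, 241, 177 and 141 CPM (1.70 ± 0.30, adjusted p = 0.000841). Of 34 pattern recognition genes 16 rose (8 without V3, 9 without V3-2, 10 without wt1, 10 without wt2, 10 without wt3, 10 without wt4, 10 with upper quartile factors and 10 on log2(FPKM + 1)). Another 2 fell (4 without V9 and 4 on log2(FPKM + 1)). Among those that rose was Tlr2, a receptor for bacterial lipopeptides, at 52.6, 54.03 and 32.5 against 14.5, 14.9, 11.9 and 10.6 CPM (1.84 ± 0.32, adjusted p = 0.000694). Clec7a, the beta-glucan receptor, was at 150.3, 128 and 27.7 against 8.66, 9.44, 9.42 and 16.5 CPM (3.21 ± 0.61, adjusted p = 0.00139). Fc receptor and ITAM genes gave 11 of 17 (4 without V3, 7 without V3-2, 6 without wt3, 6 without wt4, 7 with upper quartile factors and 5 on log2(FPKM + 1)), with Trem1 at 25.7, 24.01 and 11.1 against 1.69, 4.53, 2.07 and 3.31 CPM (2.80 ± 0.44, adjusted p = 0.000344). In none of these 5 genes did the groups overlap, and V9 was the lowest leukemic library in each. Median log2 fold changes in V9 were 0.81, 0.71 and 0.71 for the phagosome, pattern recognition and Fc receptor lists. In V3 with V3-2 they were 1.53, 1.35 and 1.83. Ncf4, a cytosolic subunit of the NADPH oxidase, rose as well, at a log2 fold change of 1.72. 

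Conventional dendritic cell genes showed the opposite order, highest in V9, though 1 tested member fell over the 3 libraries (0 without V3, V3-2, wt3 or wt4). Of 13 tested members 7 rose over the 3 (2 without V9, 4 without wt1, 3 without wt3, 4 without wt4 and 3 on log2(FPKM + 1)), 6 rose in V9 alone and 2 in V3 with V3-2. Itgae, which encodes the integrin CD103 of a dendritic cell subset, was at 16.2, 13.4 and 91.6 CPM in V3, V3-2 and V9 and 0.4599, 0.604, 0.496 and 0.484 CPM in wt1 to wt4. V9 was the highest, and V3 and V3-2 were well above WT too (log2 fold change 6.28 ± 1.03, adjusted p = 0.000452, in V9 7.46 ± 1.05, adjusted p = 0.00135 and in the pair 4.83 ± 0.94, adjusted p = 0.000993). Xcr1, the chemokine receptor of cross-presenting dendritic cells, was at 50.3, 30.4 and 214 against 10.4, 20.2, 11.2 and 11.4 CPM (2.88 ± 0.84, adjusted p = 0.0203 and in V9 4.00 ± 0.94, adjusted p = 0.0414). Batf3, the transcription factor those cells need, was at 6.24, 8.61 and 46.3 against 1.84, 3.48, 0.744 and 2.82 CPM (3.19 ± 0.92, adjusted p = 0.019 and in V9 4.37 ± 1.01, adjusted p = 0.0406). V9 stood highest for each, but none of the differences between V9 and the pair passed (2.63 ± 1.14, adjusted p = 0.418 for Itgae, 2.41 ± 1.15, adjusted p = 0.503 for Xcr1 and 2.64 ± 1.22, adjusted p = 0.477 for Batf3). Leaving out 1 library ended the calls for Xcr1 without V9, wt1, wt3 and wt4 (adjusted p = 0.165, 0.0553, 0.0576 and 0.0581), Batf3 without V9, wt1 and wt3 (adjusted p = 0.164, 0.0515 and 0.0608).

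Class II MHC genes, by which dendritic cells, B cells and macrophages present antigen, followed the same order. Their summed level was 4689, 2739.9 and 14330.3 CPM in V3, V3-2 and V9 and 1510.4 to 2349 CPM in WT, and 5 of 12 tested members rose (2 without V3, 1 without V9, 1 without wt1, 1 without wt3, 1 without wt4 and 1 on log2(FPKM + 1)). On the log2(FPKM + 1) scale 2 fell, and without V9 2 fell by edgeR. In V3 with V3-2, 1 rose and 2 fell. In V9 alone 1 passed, and for no member did the difference between V9 and the pair pass by edgeR. H2-Ab1 was at 1400.3, 764 and 5038 CPM in V3, V3-2 and V9 and 398, 603, 299 and 289 CPM in wt1 to wt4. V9 was several fold above V3 and V3-2, which were themselves above WT (log2 fold change 2.60 ± 0.78, adjusted p = 0.0235 and in V9 3.66 ± 0.89, adjusted p = 0.0473). Cd74, the invariant chain, was at 117, 34.1 and 337 against 21.6, 30.5, 9.502 and 10.97 CPM, where V3-2 was only just above the highest WT library (3.16 ± 1.05, adjusted p = 0.0384). The part of any cell type in these values was not tested. None of 17 class I genes passed in either direction by edgeR. Calls that depended on 1 library were those for H2-Ab1 without V9, wt1, wt3 and wt4 (adjusted p = 0.179, 0.0552, 0.0672 and 0.0692), Cd74 without V9, wt1, wt3, wt4 and V3 (adjusted p = 0.167, 0.0755, 0.102, 0.103 and 0.0634).

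Plasmacytoid dendritic cell genes fell: 7 of 12 tested (4 without V3 and 3 without V3-2) and none rose. Cox6a2 was at 0.675, 0.433 and 2.49 against 31.4, 31.1, 33.7 and 27.98 CPM (-4.71 ± 0.73, adjusted p = 0.000297). Siglech, a lectin that marks these cells, was at 0.506, 0.0962 and 2.33 against 23.8, 20.4, 31.2 and 25.9 CPM (-4.73 ± 1.41, adjusted p = 0.023). For both genes every leukemic library lay below every WT library. The median log2 fold change of this list was -1.25 in V9 and -3.20 in V3 with V3-2. Eosinophil, basophil and mast cell genes went both ways, with 9 of 20 rising (5 without V3) and 3 falling. V9 did not share the rise of this list, with a median log2 fold change of -0.54 against 2.17 in V3 with V3-2. Mcpt8, a basophil protease, was at 388, 226 and 139 against 66.8, 82.1, 69.6 and 49.4 CPM (1.90 ± 0.39, adjusted p = 0.00221). Gata2, the transcription factor of stem and mast cells, was at 47.9, 85.4 and 48.8 against 209, 198, 227 and 211 CPM (-1.80 ± 0.33, adjusted p = 0.00109). The call was lost on leaving out 1 library for Siglech without V3 and V3-2 (adjusted p = 0.0894 and 0.0829). A single library moved the fold change by over 1.5 times for Cox6a2 without V9 (log2 -5.82), Siglech without V9 (log2 -6.49).

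Stem cell genes fell, least so in V9. Of 23 tested members 11 fell and 1 rose (0 without V9) over the 3 libraries, against 15 and 0 in V3 with V3-2 and 3 and 1 in V9, and 6 members passed as higher in V9 than in the pair. Hlf, a leucine zipper factor of stem cells, was at 18.5, 14.9 and 63.2 CPM in V3, V3-2 and V9 and 743, 627, 1062 and 1021 CPM in wt1 to wt4. All 3 were far below WT, V9 the nearest (log2 fold change -4.75 ± 0.56, adjusted p = 3.60e-05 and in V9 -3.77 ± 0.71, adjusted p = 0.0117). Procr, the endothelial protein C receptor by which stem cells are sorted, was at 3.04, 3.897 and 13.6 against 73.7, 56.4, 59.3 and 70.1 CPM (log2 difference 1.97 ± 0.39, adjusted p = 0.00994). Mecom, a zinc finger factor that stem cells need, was at 3.12, 1.88 and 31.1 against 65.997, 54.6, 85.9 and 81.5 CPM (log2 difference 3.65 ± 0.42, adjusted p = 4.72e-05). Esam, an adhesion molecule of stem cells, had almost vanished from V3 and V3-2 and was partly kept in V9, at 0.169, 0.0481 and 12.4 against 87.8, 77.9, 46.1 and 79.03 CPM (log2 difference 6.90 ± 0.75, adjusted p = 2.68e-05 and -2.55 ± 0.61, adjusted p = 0.0459 for V9 against WT). Slamf1, the CD150 gene, was low in all 3 leukemic libraries, at 0, 0.144 and 0.562 against 11.96, 9.52, 6.94 and 7.34 CPM (-5.22 ± 0.93, adjusted p = 0.000803). The estimate moved by over 1.5 times for Hlf without V9 (log2 -5.70), Slamf1 without V9 (log2 -6.56).

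Large differences between the leukemic libraries were found in genes that V9 kept nearer to the WT level. Mycn, a MYC family transcription factor, was at 1.603, 1.83 and 159 CPM in V3, V3-2 and V9 and 75.2, 53.3, 81.1 and 84.5 CPM in wt1 to wt4. V9 was above every WT library and V3 and V3-2 were at a small fraction of them (log2 difference 6.52 ± 0.56, adjusted p = 2.52e-06), so the mean of the 3 did not pass (-0.44 ± 0.88, adjusted p = 0.746), while V3 with V3-2 fell (-5.41 ± 0.49, adjusted p = 1.11e-06). Gata3, a transcription factor of lymphoid and stem cells, was at 0.506, 0.385 and 34.1 against 63.5, 59.99, 66.2 and 58.2 CPM (log2 difference 6.26 ± 0.81, adjusted p = 0.000205). Gimap3, a GTPase of lymphocytes that shares sequence with its family, was at 0, 0.0481 and 30.7 against 20.4, 16.6, 16.5 and 16.5 CPM (log2 difference 9.59 ± 1.26, adjusted p = 0.000205). Zfp36l1, an RNA-binding protein that shortens the life of mRNAs, was at 9.87, 9.29 and 51.2 against 71.7, 62.9, 74.03 and 63.6 CPM (log2 difference 2.42 ± 0.52, adjusted p = 0.0182). Ltc4s, leukotriene C4 synthase, was at 1.77, 0.866 and 10.2 against 22.996, 21.5, 26.4 and 22.2 CPM (log2 difference 2.97 ± 0.52, adjusted p = 0.00366). Slc22a3, an organic cation transporter, was at 6.75, 14.6 and 72.8 against 176, 179.8, 174 and 154 CPM (log2 difference 2.76 ± 0.61, adjusted p = 0.0191). For these last 3 V9 lay below WT but nearer to it than V3 and V3-2 did, and V9 alone did not pass against WT (-0.41 ± 0.51, adjusted p = 0.834, -1.19 ± 0.51, adjusted p = 0.327 and -1.23 ± 0.62, adjusted p = 0.435).

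Most red cell genes fell over the 3 libraries. Of 25 tested members 19 fell and 1 rose (0 without V3-2 and 0 on log2(FPKM + 1)), and 2 passed as lower in V9 alone, with a median log2 fold change of -3.86 over the 3 and -3.49 in V9. Cldn13, a claudin of mouse erythroid cells, was at 0.169, 0.0962 and 0.321 CPM in V3, V3-2 and V9 and 20.1, 20.7, 15.2 and 16.3 CPM in wt1 to wt4. All leukemic libraries were near 0 (log2 fold change -6.53 ± 0.71, adjusted p = 1.28e-05 and in V9 -5.77 ± 1.11, adjusted p = 0.013). Aqp1, the water channel of red cells, was at 1.35, 1.64 and 2.49 against 33.3, 42.7, 50.6 and 20.3 CPM (-4.33 ± 0.62, adjusted p = 0.000154). Gata1, the master factor of erythroid and platelet precursors, was at 6.08, 3.51 and 2.89 against 37.4, 60.4, 26.7 and 28.1 CPM (-3.20 ± 0.58, adjusted p = 0.000927). Of 21 tested megakaryocyte genes 6 fell and 1 rose (0 without V3, 2 without V9, 2 without wt1, 0 without wt3 and 0 without wt4). Pf4, platelet factor 4, was at 1.77, 0.722 and 8.99 against 135, 131, 139.7 and 172 CPM (-5.26 ± 0.94, adjusted p = 0.000858 and for the pair -6.90 ± 1.10, adjusted p = 0.000157). Gp9, a subunit of the platelet receptor for von Willebrand factor, was at 4.39, 2.98 and 10.2 against 36.3, 35.8, 32.4 and 35.5 CPM (-2.58 ± 0.41, adjusted p = 0.000351 and for the pair -3.25 ± 0.43, adjusted p = 2.92e-05). 

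B cell genes were the most complete loss among these lists: 22 of 23 tested early B cell genes fell, and 7 passed as lower in V9 alone. Their summed level was 484, 349 and 433 CPM in V3, V3-2 and V9 and 1076 to 1299 CPM in WT. That sum fell less than the median member did (log2 fold change -5.88). The 1 member without a call was higher in every leukemic library than in every WT library. Vpreb3, a chaperone of the pre-B cell receptor, was at 0.253, 0.433 and 0.321 CPM in V3, V3-2 and V9 and 53.1, 49.9, 106 and 61.5 CPM in wt1 to wt4. None of the leukemic libraries reached 1 CPM (log2 fold change -7.58 ± 0.94, adjusted p = 5.06e-05 and in V9 -7.68 ± 1.62, adjusted p = 0.0238). Blnk, the linker of B cell receptor signals, was at 1.35, 0.481 and 0.963 against 25.8, 37.2, 42.4 and 31.5 CPM (-5.21 ± 0.67, adjusted p = 6.10e-05 and in V9 -5.14 ± 1.12, adjusted p = 0.0278). Pax5, the factor that fixes B cell identity, was at 0, 0 and 0 against 2.53, 2.42, 2.89 and 2.26 CPM, a log2 fold change of at most -5.25 against 3 counts over the leukemic group. Of 24 T and NK cell genes 11 fell (17 without V9) and none passed in V9 alone, with Cd8b1 at 0, 0 and 0 against 6.98, 3.702, 5.04 and 3.55 CPM, at most -6.18 on the same scale. Of 18 genes of lymphoid-primed progenitors 11 fell (6 without V3, 5 without V3-2 and 7 without wt3). Bcl11a, a repressor that lymphoid progenitors need, was at 57.7, 29.1 and 119 against 264, 249, 340.3 and 306 CPM (-2.08 ± 0.46, adjusted p = 0.00393 and for the pair -2.74 ± 0.50, adjusted p = 0.00063). Satb1, a chromatin organizer of lymphoid progenitors, was at 1.35, 1.59 and 1.36 against 9.73, 5.74, 7.68 and 17.5 CPM (-2.81 ± 0.65, adjusted p = 0.00539). WT LSK cells hold lymphoid-primed progenitors, so a lower level here is relative to a WT mixture of cells. 

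Targets of STAT5, the factor downstream of mutant FLT3, were uneven. Of 18 tested members 4 rose over the 3 libraries (2 without wt2, 2 without wt3, 2 without wt4, 2 with upper quartile factors and 2 on log2(FPKM + 1)) and none fell, 3 rose in V9, and 3 rose and 5 fell in V3 with V3-2. On the log2(FPKM + 1) scale 3 fell over the 3 libraries. Cish, the cytokine-induced inhibitor whose promoter is printed above, was at 37.3, 30.02 and 192 CPM in V3, V3-2 and V9 and 34.3, 21.6, 29.99 and 30.2 CPM in wt1 to wt4. V9 was well above WT, while V3 and V3-2 were level with it, and V9 passed against WT (log2 fold change 2.73 ± 0.44, adjusted p = 0.00381) and against the pair (2.51 ± 0.53, adjusted p = 0.0138). Socs2, another feedback inhibitor, was at 2.45, 2.45 and 16.6 against 0.23000, 0.0756, 0 and 0.403 CPM: all 3 exceeded WT, V9 the most (5.26 ± 0.98, adjusted p = 0.00115, in V9 6.47 ± 0.98, adjusted p = 0.00269 and in the pair 3.72 ± 0.90, adjusted p = 0.00574). Pim2, a survival kinase, was at 5.65, 12.1 and 68.3 against 34.6, 23.4, 23.9 and 24.6 CPM, above WT in V9 and below it in V3 and V3-2 (log2 difference 2.93 ± 0.58, adjusted p = 0.00956). Socs3 was at 0.422, 1.68 and 5.22 against 8.13, 7.102, 6.03 and 7.18 CPM, below WT in all 3, and fell in the pair (-2.69 ± 0.68, adjusted p = 0.00732) but not over the 3 (-1.54 ± 0.63, adjusted p = 0.0851). Of 11 listed STAT5 genes with a promoter in the table, 3 (27.3%) held TTCNNNGAA. Leaving out 1 library moved the estimate by over 1.5 times for Socs2 without V9 and wt4 (log2 3.71 and 6.00).

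MAP kinase feedback genes, which ERK activity normally induces, fell. Of 17 tested members 9 fell (4 without V3 and 5 without V3-2) and none rose. Dusp6, the ERK phosphatase, was at 23.97, 16.5 and 11.7 CPM in V3, V3-2 and V9 and 60.5, 82.5, 124 and 82.7 CPM in wt1 to wt4. All leukemic libraries were below WT and V9 the lowest (log2 fold change -2.33 ± 0.58, adjusted p = 0.00806). Spred1, an inhibitor of RAS signaling, was at 20.2, 32.8 and 42.04 against 85.6, 90.9, 105 and 95.2 CPM (-1.57 ± 0.28, adjusted p = 0.000892). Etv5, an ETS factor induced by ERK, was at 0.253, 0.625 and 1.93 against 17.5, 17.9, 31.6 and 19.7 CPM (-4.53 ± 0.81, adjusted p = 0.000878 and in the pair -5.53 ± 0.97, adjusted p = 0.000402). No member passed in V9 alone, although V9 was below all of WT for the 3 genes named. Egr1, an immediate-early factor, was at 0.844, 1.01 and 2.09 against 10.2, 8.99, 14.5 and 8.06 CPM and fell (-2.99 ± 0.85, adjusted p = 0.0179 and in the pair -3.47 ± 1.02, adjusted p = 0.0193), while Fosl2, an AP-1 subunit, was at 90.04, 132 and 22.2 against 20.01, 17.98, 13.6 and 12.9 CPM and rose (2.33 ± 0.46, adjusted p = 0.00178 and in the pair 2.78 ± 0.39, adjusted p = 5.61e-05). Single libraries decided the calls for Egr1 without V3 and V3-2 (adjusted p = 0.0787 and 0.0687).

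Cytokine receptors went both ways, with a median log2 fold change of 0.45 in V3 with V3-2 and -0.02 in V9. Of 33 tested, 12 rose (7 without V3-2 and 7 on log2(FPKM + 1)) and 7 fell (3 without V3, 3 without V3-2, 3 without wt3 and 3 without wt4). Csf2rb, the shared subunit of the GM-CSF, IL-3 and IL-5 receptors, was at 391, 315 and 257 against 109.5, 108, 90.97 and 98.7 CPM, with no overlap (1.66 ± 0.28, adjusted p = 0.000568). Tnfrsf1a, a TNF receptor, was at 513, 373 and 209 against 143, 136, 115 and 113 CPM (1.53 ± 0.30, adjusted p = 0.00181). Epor, the erythropoietin receptor, was at 0, 0.0962 and 1.605 against 13.8, 13.6, 9.67 and 11.4 CPM, near 0 in V3 and V3-2 and low in V9 (-4.44 ± 1.05, adjusted p = 0.00599). Il7r, the receptor of lymphoid progenitors, was at 0.422, 0.241 and 1.52 against 33.04, 33.02, 55.5 and 52.9 CPM (-5.93 ± 1.20, adjusted p = 0.00214 and in the pair -7.05 ± 1.504, adjusted p = 0.00217). Fold changes moved by over 1.5 times for Epor without V9 (log2 -7.49).

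TGF-beta and BMP genes fell more often than they rose, with 9 of 26 falling (4 without V3) and 3 rising (1 without wt3, 1 without wt4 and 1 on log2(FPKM + 1)). The share that rose was close to the 10.1% of all accessions. Id2, like Id1 a helix-loop-helix inhibitor, was at 388, 88.3 and 1390.5 against 121, 173, 47.8 and 57.6 CPM, highest in V9 with V3-2 inside the WT range (2.64 ± 0.80, adjusted p = 0.0248). Id3 of the same family was at 0.844, 0.144 and 3.85 against 13.5, 16.2, 26.4 and 14.5 CPM, below WT in every leukemic library (-3.47 ± 1.01, adjusted p = 0.0197). Smad7, the inhibitory SMAD, was at 7.43, 15.2 and 14.3 against 26.98, 27.5, 45.2 and 38.95 CPM (-1.49 ± 0.37, adjusted p = 0.00883). The 3 Id genes therefore did not move together, Id1 being higher at like levels in all 3 libraries, Id2 uneven and Id3 lower. Of 23 Notch pathway genes 4 rose (2 on log2(FPKM + 1)) and 5 fell (2 without V3, 3 without V3-2 and 8 on log2(FPKM + 1)), among them Dtx4, a ubiquitin ligase (2.18), and Ncstn, a gamma-secretase subunit (1.22), which rose. Of 22 Wnt genes 2 rose (1 without V3-2), again close to the share of all accessions. Another 5 fell (3 without V3, 2 without V3-2, 3 without wt1, 3 without wt2, 3 without wt3 and 3 without wt4). Fzd1, a frizzled receptor, was at 3.97, 9.43 and 13.96 against 1.23, 1.44, 0.0826 and 0.161 CPM (3.62 ± 0.84, adjusted p = 0.00527 and in V9 4.23 ± 0.99). With single libraries left out, calls ended for Id2 without V9, wt3 and wt4 (adjusted p = 0.246, 0.0748 and 0.075), Id3 without wt3, V3 and V3-2 (adjusted p = 0.0505, 0.0859 and 0.0681), Smad7 without V3 (adjusted p = 0.053). A single library moved the fold change by over 1.5 times for Id3 without V9 (log2 -5.24).

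Interferon-stimulated genes, part of which mouse stem cells express without infection, were lower. Of 51 tested members 18 fell (11 without V3-2) and 1 rose (2 without wt1), and 3 passed as lower in V9 alone. Ifit1, an RNA-binding antiviral protein, was at 2.95, 0.722 and 1.69 CPM in V3, V3-2 and V9 and 26.2, 20.6, 13.1 and 20.3 CPM in wt1 to wt4. The 3 leukemic libraries were below all of WT, V3-2 the lowest (log2 fold change -3.51 ± 0.45, adjusted p = 6.10e-05 and in V9 -3.56 ± 0.75). Ifi44 was at 2.03, 0.962 and 6.82 against 75.04, 62.03, 82.9 and 112 CPM (-4.69 ± 0.55, adjusted p = 3.60e-05, in V9 -3.60 ± 0.66, adjusted p = 0.0097 and in the pair -5.83 ± 0.56, adjusted p = 1.33e-06). Ifi44l was at 0.338, 0.0481 and 0 against 31.7, 28.4, 70.2 and 85.97 CPM. Both lie on chromosome 3, as does Adgrl4. Isg15, a ubiquitin-like protein, was at 5.57, 2.74 and 10.1 against 24.5, 30.3, 18.3 and 17.2 CPM (-1.88 ± 0.39, adjusted p = 0.00257), Rsad2, the antiviral enzyme viperin, at 3.46, 2.41 and 8.26 against 29.7, 29.8, 10.1 and 14.9 CPM (-2.17 ± 0.45, adjusted p = 0.00244). Ddx58, the RNA sensor RIG-I, was at 24.6, 21.8 and 25.9 against 81.6, 79.03, 92.1 and 88.8 CPM (-1.82 ± 0.27, adjusted p = 0.000207 and in V9 -1.72 ± 0.43, adjusted p = 0.0569). Within the leukemic group V9 was the highest for Isg15, Rsad2 and Ifi44, and the 3 libraries were nearly equal for Ddx58. Of 42 tested members with a listed promoter, 21 (50.0%) held GAAANNGAAA, and of the 15 that fell 7 did. The estimate moved by over 1.5 times for Rsad2 without V9 (log2 -2.86).

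The Ifi200 family, DNA sensors whose near-identical copies can share reads, moved apart from that list. Ifi209 was at 309, 202 and 81.1 against 21.1, 28.6, 18.2 and 19.3 CPM (3.18 ± 0.56, adjusted p = 0.000758), higher in every leukemic library, and Mndal at 139.9, 86.4 and 212 against 285, 248, 329.5 and 313 CPM, lower in every one (-1.01 ± 0.34, adjusted p = 0.0417). Ifi205 was at 50.97, 26.7 and 219 against 7.67, 13.4, 2.56 and 4.84 CPM, highest in V9 (3.79 ± 0.98, adjusted p = 0.0107 and in V9 4.94 ± 1.09, adjusted p = 0.0288). Leaving out 1 library ended the calls for Mndal without V3, V3-2, wt1, wt3 and wt4 (adjusted p = 0.117, 0.182, 0.0687, 0.0916 and 0.092), Ifi205 without V9 (adjusted p = 0.068).

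Mitosis genes rose in part, and DNA replication genes depended on the scaling. Of 40 tested mitosis genes 12 rose (5 without V3, 5 without V3-2, 6 without wt1, 7 without wt4, 7 with upper quartile factors and 4 on log2(FPKM + 1)) and none fell, and of 37 DNA replication genes 7 rose and none fell (1 without V3, 3 without V3-2, 4 without wt3, 1 without wt4, 4 with upper quartile factors and 0 on log2(FPKM + 1)). On the log2(FPKM + 1) scale 2 replication genes fell by limma. Bub1b, a spindle checkpoint kinase, was at 241, 273 and 172 CPM in V3, V3-2 and V9 and 80.5, 104, 102 and 74.03 CPM in wt1 to wt4 (log2 fold change 1.34 ± 0.30, adjusted p = 0.0039). Aurkb, the Aurora B kinase, was at 356, 240.03 and 254 against 122, 170.3, 135 and 99.6 CPM (1.10 ± 0.28, adjusted p = 0.00885). Pold1, the catalytic subunit of DNA polymerase delta, was at 288, 367 and 206 against 139.5, 151, 124 and 114 CPM (1.12 ± 0.28, adjusted p = 0.00955). In each the leukemic libraries exceeded all of WT, V9 included, but no member of either list passed in V9 alone. Calls that depended on 1 library were those for Aurkb without V3 (adjusted p = 0.0672), Pold1 without V3-2 (adjusted p = 0.0577).

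Genes of the secretory pathway and of the TCA cycle rose in part. For the unfolded protein response the median log2 fold change was 0.57 in V9 and 1.15 in V3 with V3-2. For the TCA cycle and glutamine it was 0.74 in V9 and 0.69 in V3 with V3-2. Of 34 tested genes of the unfolded protein response 14 rose and 1 fell (0 without V3, 0 without V3-2, 0 without wt1, 0 without wt2, 0 without wt3 and 0 without wt4). P4hb, the protein disulfide isomerase, was at 3419, 2667 and 1327 against 526, 639, 362 and 289 CPM (2.44 ± 0.35, adjusted p = 0.000157 and in V9 1.55 ± 0.42, adjusted p = 0.0834). Atf6, a sensor of unfolded protein, was at 129.7, 165 and 94.8 against 59.9, 62.3, 59.9 and 50.4 CPM (1.16 ± 0.22, adjusted p = 0.00138). Of 25 genes of the TCA cycle and glutamine 10 rose (4 without V3, 5 without wt4 and 2 on log2(FPKM + 1)), including Cs, citrate synthase, at 487, 396 and 346 against 178, 242, 189 and 122 CPM (1.16 ± 0.27, adjusted p = 0.00552). Pdha1, a pyruvate dehydrogenase subunit, was at 309, 239.5 and 173 against 96.05, 118, 110.3 and 69.2 CPM (1.29 ± 0.29, adjusted p = 0.00478). Mthfd2, the mitochondrial folate enzyme, was at 167, 76.6 and 153 against 35.9, 66.2, 37.6 and 24.03 CPM and passed in V9 too (1.69 ± 0.35, adjusted p = 0.00251 and in V9 1.90 ± 0.46, adjusted p = 0.0492). Of 55 respiratory chain genes 5 rose (1 without V3, 3 without V3-2, 3 without wt1, 2 without wt3, 2 without wt4, 3 with upper quartile factors and 0 on log2(FPKM + 1)), no larger a share than over all accessions, with a median log2 fold change of -0.13. On log2(FPKM + 1) 1 of them fell. Of 64 cytosolic ribosomal protein genes none passed by edgeR over the 3 libraries.

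Enzymes that use alpha-ketoglutarate and their neighbors were called no more often than all accessions. Of 22 tested DNA methylation and IDH genes 2 rose (1 without V3-2, 1 without wt3 and 1 on log2(FPKM + 1)) and 2 fell (1 without V3-2). Of 29 histone demethylases and other dioxygenases 3 rose (1 on log2(FPKM + 1)) and 1 fell (0 without V3, 0 without wt3 and 2 on log2(FPKM + 1)). Tet2 was at 188, 120.3 and 141 against 122, 117, 137 and 145 CPM (0.20 ± 0.33, adjusted p = 0.699) and Tet3 at 169, 216 and 180.05 against 179.98, 176, 200.2 and 214 CPM (-0.03 ± 0.32, adjusted p = 0.956), with overlapping groups. Zbtb4, a reader of methylated DNA, was at 6.92, 8.95 and 15.7 against 46.3, 36.6, 51.8 and 65.97 CPM, below WT in every leukemic library (-2.25 ± 0.33, adjusted p = 0.000207). Gadd45b, linked to active demethylation, was at 65.99, 56.4 and 37.8 against 19.8, 27.8, 12.97 and 10.3 CPM and rose (1.59 ± 0.34, adjusted p = 0.00315). Cbx7, a Polycomb subunit of stem cells, was at 12.2, 21.03 and 19.7 against 61.2, 43.97, 74.3 and 91.4 CPM (-1.94 ± 0.36, adjusted p = 0.00122). It was among 3 genes that fell of 32 tested Polycomb and MLL genes (5 without V9, 5 with RLE factors, 8 with upper quartile factors and 11 on log2(FPKM + 1)), a share close to that of all accessions. mRNA levels do not measure the activity of these enzymes or 2-hydroxyglutarate.

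Hox and imprinted genes, which stem cells express, were lower. Of 18 tested genes of the Hox list 8 fell (3 without V3 and 4 without wt4), none rose and none passed in V9 alone. Hoxa5 was at 3.54, 5.44 and 11.1 against 32.7, 23.8, 39.6 and 57.3 CPM (-2.52 ± 0.56, adjusted p = 0.00427) and Hoxb5, which marks long-term stem cells in mice, at 0.675, 0.337 and 0.642 against 12.03, 7.33, 9.58 and 13.4 CPM (-4.27 ± 0.68, adjusted p = 0.000351). Hoxa9, often high in human leukemia, was low in all 7 libraries, at 0.506, 0.7698 and 1.77 against 3.296, 1.66, 2.23 and 4.35 CPM, and did not pass (-1.51 ± 0.77, adjusted p = 0.168). Of 10 imprinted genes 6 fell and 2 passed as lower in V9. Phlda2, a growth-restraining imprinted gene, was at 0.253, 0.0481 and 0.161 against 13.03, 9.75, 13.5 and 14.2 CPM (-6.38 ± 0.79, adjusted p = 4.87e-05 and in V9 -6.21 ± 1.33, adjusted p = 0.0248). Ppp1r9a, a cytoskeletal scaffold, was at 5.99, 7.31 and 23.5 against 105, 83.5, 115 and 155 CPM (-3.23 ± 0.45, adjusted p = 0.000145, in V9 -2.28 ± 0.54, adjusted p = 0.0414 and in the pair -4.10 ± 0.44, adjusted p = 4.41e-06). V9 was the highest leukemic library for Ppp1r9a and lay between the other 2 for Phlda2. Leaving out 1 library moved the estimate by over 1.5 times for Hoxa9 without V9 (log2 -2.16).

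**Figure D4:**
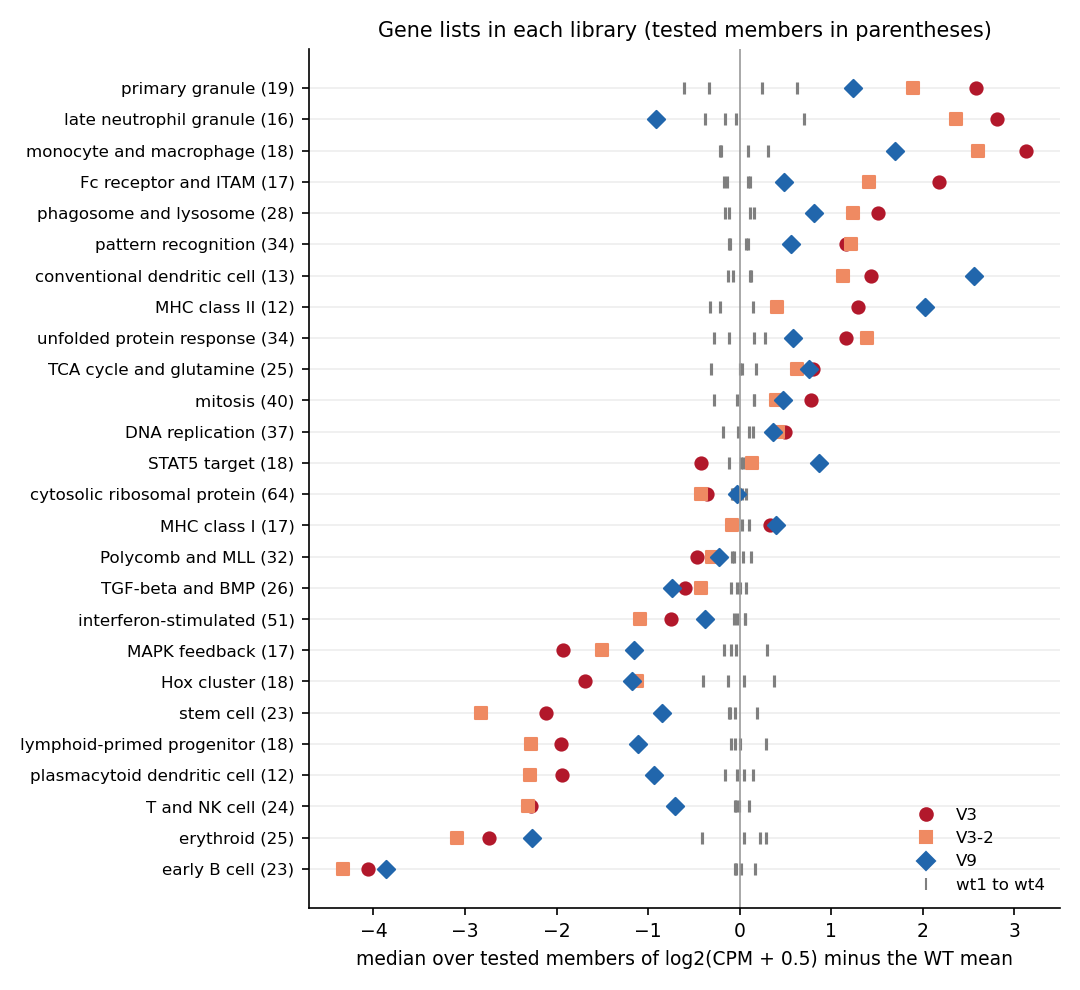
Median over the tested members of 26 gene lists of log2(CPM + 0.5) minus the WT mean, on the x axis, for V3, V3-2 and V9 (colored points) and wt1 to wt4 (gray ticks), with the number of tested members in parentheses. V9 lies on the other side of 0 from V3 and V3-2 for late neutrophil granule genes, is highest for dendritic cell and class II genes, and lies between WT and the pair for stem cell genes.

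Single values of V3-2 stood apart from the other 6 libraries. Rps16, a ribosomal protein gene, was at 8.27, 174 and 11.6 against 12.4, 11.03, 11.98 and 13.95 CPM (2.39 ± 0.89, adjusted p = 0.0613), Bak1, a pro-apoptotic BCL2 relative, at 33.1, 220.5 and 38.8 against 31.3, 30.2, 36.03 and 22.1 CPM (1.71 ± 0.59, adjusted p = 0.0446). Tgfb1 was at 19.1, 500.03 and 16.4 against 14.9, 15.6, 13.8 and 9.35 CPM (3.73 ± 1.11, adjusted p = 0.0221). V3-2 was many fold above all the others in each, V3 included. Cdkn2c, a cyclin-dependent kinase inhibitor, was at 1.86, 46.8 and 1.28 against 1.07, 1.81, 1.16 and 0.403 CPM (3.90 ± 1.13, adjusted p = 0.0197). Idh1, the cytosolic relative of Idh2 with 2 accessions, was at 1.35, 7.36 and 0.401 against 0.383, 0.529, 0.0826 and 0 CPM (3.56 ± 0.98, adjusted p = 0.015). Calls for these genes rest on V3-2. The call was lost on leaving out 1 library for Bak1 without V3-2, wt1, wt2, wt3 and wt4 (adjusted p = 0.771, 0.0851, 0.0785, 0.0747 and 0.109), Tgfb1 without V3-2, wt1, wt3 and wt4 (adjusted p = 0.811, 0.0524, 0.0577 and 0.0668), Cdkn2c without V3-2, wt1, wt3 and wt4 (adjusted p = 0.782, 0.0508, 0.0523 and 0.0642), Idh1 without V3-2 and wt3 (adjusted p = 0.263 and 0.0501). Fold changes moved by over 1.5 times for Rps16 without V3-2 (log2 -0.31), Idh1 without wt2 (log2 4.20).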

How the data were processed

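LSK cells had been sorted from mice and their polyA RNA amplified for sequencing with the SMARTer Ultra Low Input method, per the labels' protocols. The submitters' processing notes list STAR 2.4.0f1, Subread 1.4.5-p1, featureCounts and build mm9. The deposited count table holds raw reads per RefSeq accession. In the table of deposited FPKM values, each equals the count divided by library total and accession length. Accessions of genes with several accessions are more often at 0 in the deposited counts. The 189 accessions without a gene name (3.47% of counts) stayed in the tests and are not named.

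Counts were filtered (filterByExpr, 11830 accessions kept), scaled (TMM) and tested with edgeR 4.0.16 in R 4.3.3 by its quasi-likelihood test, on all 19 libraries with 14 residual degrees of freedom. An adjusted p (Benjamini-Hochberg) under 0.05 was called. A second fit gave V9 a mean of its own. The scripts were tested on simulated data. The ± is a standard error, and a group at 0 is bounded by 3 counts over its libraries. Alternatives used DESeq2 1.42.0, limma-voom and limma on log2 FPKM (limma 3.58.1), other factors and filters, the 7 libraries alone, V3 and V3-2 summed, and each library left out.

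The members and the gene lists were chosen with earlier results of these data known. The rule for named genes took fixed genes, the 5 members with the smallest p of every list, and the called accessions with the largest changes, the largest differences between V9 and the pair, or the smallest p in all contrasts, 313 in all. The text names part of these, and some are not reported here. A further 14 list members were chosen after their values were seen: Prtn3, S100a8, Mecom, Gata3, Pim2, Epor, Id2, Id3, Smad7, Isg15, Rsad2, Tet3, Hoxa9 and Tgfb1.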

Additional observations from a re-analysis of the deposited data

Results flagged for a closer look

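In 13 of 323 genes named or added, 1 WT library lay further from the other 3 than Dixon's limit allows, and chance alone gives this in about 1 of 20 groups. The library wt2 was apart for Ear1 (1.59 CPM), Xcr1 (20.2), H2-M3 (77.4) and Gdf10 (0.0756). The library wt1 was apart for Cdkn1a (0.153 CPM), Bcl2a1d (0.843), Gimap3 (20.4) and Pim2 (34.6). The library wt3 was apart for Cplx2 (41.6 CPM) and Etv5 (31.6), and wt4 for Clec7a (16.5 CPM), Ikbke (56.8) and Fam20a (0.806). The leukemic group, with 3 libraries, was not examined this way.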

How the results depend on the processing

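No paired analysis was possible because the headers V3, V3-2 and V9 carry no replicate number of the labels. Over the 3 libraries, the 2428 calls became 1264 with V3 and V3-2 summed, 144 with V9 alone and 1266 to 2779 with 1 library left out. The 1195 higher calls became 608, 89 and 624 to 1341, and the 1233 lower calls 656, 55 and 642 to 1438. On log2(FPKM + 1) and log2(FPKM + 0.1), which lower the median of all accessions, 560 and 512 were higher and 2153 and 2097 lower. Upper quartile factors gave 801 higher and 1474 lower. For V3 with V3-2 the FPKM scales gave 711 and 614 higher and 2270 and 2320 lower. The 144 calls of V9 alone became 342 with no filter, 486 in the compared groups alone, 409 with DESeq2, 383 and 311 on the FPKM scales and 36 to 97 with a library left out. Its 89 higher calls became 224, 236, 58 and 42 on the FPKM scales, and 19 to 64. Its 55 lower calls became 118, 250, 283 with DESeq2, 325 and 269, and 17 to 33. The 169 differences between V9 and the pair became 257 with no filter, 326 in the compared groups alone, 404 with DESeq2 and 99 with limma-voom. The 158 higher ones became 244, 252 and 77 under the last 3 and 61 on log2(FPKM + 1). The 11 lower ones became 47, 82, 152 and 22 under these 4 settings and 58 and 20 on the FPKM scales. Among named genes called in either fit, the log2 fold change reversed in V9 alone for Cd177 (-0.39), Ltf (-0.88), Chil3 (-0.66), Vcam1 (-1.88), Fcgr3 (-0.0911), Alox5 (-0.35), Dio2 (-0.29) and Ikbke (-0.52). Without V9 it reversed for Mmp16, Apob and Pim2 (ranges with 1 library left out of -7.28 to 0.91, -4.55 to 1.12 and -1.59 to 0.59). Named genes called in neither fit also changed sign, 6 in V9 alone and 2 without V9. The causes were not tested. Of the 281 named or added genes that were called, 213 lost their call in V9 alone (8 of them reversed), 41 with V3 and V3-2 summed, 1 with DESeq2 and 8 to 51 with 1 library left out. With DESeq2 only 274 of these called genes could be compared. The small number of libraries, and 1 library for V9, limits what could pass.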
